A study of Mus musculus with 8 samples.

Results

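The genes described here are 5 imprinted genes of the mouse region that corresponds to the human Prader-Willi and Angelman syndrome domain: Ndn, Magel2, Mkrn3, Peg12 and Ube3a. Each had 1 probe that could be matched to its symbol, so they make up 5 of 33012 gene probes on the arrays and 5 of the 311 genes whose probe carried a usable gene symbol. Whether a probe without a symbol also reads 1 of these genes is not known. They were selected on their place in this domain with the signal and signal-to-noise values of this same comparison in view. Their levels and differences are therefore given as a description, without a test of their own.

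The measurements come from the cerebral cortex of newborn GAD67-EGFP+/- mice at postnatal day 0. In these mice EGFP is expressed from the gene of GAD67, an enzyme that synthesises GABA, and it marks the GABAergic neurons of the cortex. Both fractions carry the same heterozygous allele. Dissociated cells were sorted into a GFP+ fraction (4 samples) and a GFP- fraction (4 samples), and RNA was extracted without culture, amplified, labelled with digoxigenin and measured on 1 array per sample. The GFP- fraction pools the remaining cortical cells, among them excitatory neurons, glia, dividing progenitors, blood and vessel cells. Whether a sample was 1 pup or a pool is not given in the sources used here. No gene of a list of 20 GABAergic neuron genes was matched to a probe, so the GFP+ fraction goes by its sort alone.

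Genomic imprinting silences one parental copy of a gene, usually through DNA methylation laid down in the germ line. In this domain Ndn, Magel2, Mkrn3 and Peg12 are transcribed from the paternal chromosome under the control of an imprinting centre near Snrpn. In neurons Ube3a is transcribed mainly from the maternal copy, because a long antisense transcript from the paternal chromosome silences the paternal one, whereas in most other cells both copies are used. Loss of the paternal expression of this region causes Prader-Willi syndrome in humans, and loss of maternal UBE3A causes Angelman syndrome. The array signals do not separate the parental copies.

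On mouse chromosome 7 the RefSeq annotation of GRCm38.p6 lists Ndn, Magel2, Mkrn3 and Peg12 next to each other among the protein-coding genes. Ube3a lies apart from them, on the other side of Snurf and Snrpn. The 300-base promoter windows of RefSeq (250 bases before and 50 bases after the annotated start) are shown for Ndn, Magel2 and Ube3a. Ndn and Magel2 had the largest mean differences between the fractions, that of Magel2 set largely against background readings. Ube3a is the maternally expressed member. The windows are written 5′ to 3′ on the strand of the gene, and capitals mark CpG dinucleotides, at which DNA can be methylated. Methylation was not measured here for any of these windows.
Ndn, chr7:62348027-62348326, plus strand: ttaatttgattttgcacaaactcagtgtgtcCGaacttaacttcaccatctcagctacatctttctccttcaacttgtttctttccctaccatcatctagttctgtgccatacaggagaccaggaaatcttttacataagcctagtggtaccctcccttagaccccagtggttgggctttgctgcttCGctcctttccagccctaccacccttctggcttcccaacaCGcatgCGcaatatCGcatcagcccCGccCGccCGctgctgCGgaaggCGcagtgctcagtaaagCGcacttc
Magel2, chr7:62376729-62377028, plus strand: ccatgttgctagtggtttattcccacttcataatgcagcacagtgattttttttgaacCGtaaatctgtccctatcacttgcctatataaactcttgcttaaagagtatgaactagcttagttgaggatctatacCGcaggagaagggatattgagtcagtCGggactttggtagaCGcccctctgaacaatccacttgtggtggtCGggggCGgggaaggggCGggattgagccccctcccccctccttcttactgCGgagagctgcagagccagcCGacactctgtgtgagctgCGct
Ube3a, chr7:59228500-59228799, plus strand: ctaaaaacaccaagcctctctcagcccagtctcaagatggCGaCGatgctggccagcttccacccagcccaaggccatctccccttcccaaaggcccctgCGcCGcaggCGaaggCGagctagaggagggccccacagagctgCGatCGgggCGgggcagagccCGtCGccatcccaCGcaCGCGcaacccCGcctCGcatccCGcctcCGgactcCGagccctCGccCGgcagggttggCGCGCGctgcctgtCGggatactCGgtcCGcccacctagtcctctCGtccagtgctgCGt
The Ube3a window held 29 CpG dinucleotides, and 12.9% of 32851 promoter windows held at least as many. The windows of the paternally expressed members held fewer, with 11 in Ndn, 10 in Magel2, 15 in Mkrn3 and 12 in Peg12, against a median of 7 over all windows. Windows with at least as many made up 41.4%, 43.5%, 34.6% and 39.6% of all windows in the same gene order. The letters GCATGCGC, part of the motif of the factor NRF1, were searched on both strands and occurred once among the 5 windows, at base 229 of the Ndn window, and in 2.71% of all windows. The letters CCGGAAG, the core of ETS-family motifs, occurred 2 times in the Mkrn3 window and in none of the other members' windows, and in 8.86% of all windows. The letters ATGGCG, part of the motif of the factor YY1, occurred 2 times in the Ube3a window and 1 time in that of Mkrn3, and in 8.93% of all windows. None of the matches of 1 motif overlapped those of another. These matches describe letters only.

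Across the 4 sorted pairs the paternally expressed genes read higher in GFP+ than in GFP- cells on average, most of all Magel2 and Ndn, while Ube3a was nearly level. The mean GFP+ minus GFP- difference in normalized log2 signal was 1.94 ± 1.53 for Magel2, 0.57 ± 0.21 for Ndn, 0.33 ± 0.51 for Peg12, 0.27 ± 0.07 for Mkrn3 and 0.05 ± 0.20 for Ube3a (SD over 4 pairs). As folds these are 3.84, 1.48, 1.26, 1.21 and 1.04. The Magel2 value is set largely against background readings, since its probe was above background on 3 of 4 GFP+ arrays and 1 of 4 GFP- arrays, so neither its exact size nor its place in this order is measured. Only for Magel2 and Peg12 among the paternally expressed genes did the fractions overlap, and the Ube3a signals overlapped as well. The RNA comes from whole fractions, so more cells that express a gene and more RNA per cell cannot be told apart.

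**Figure D1:**
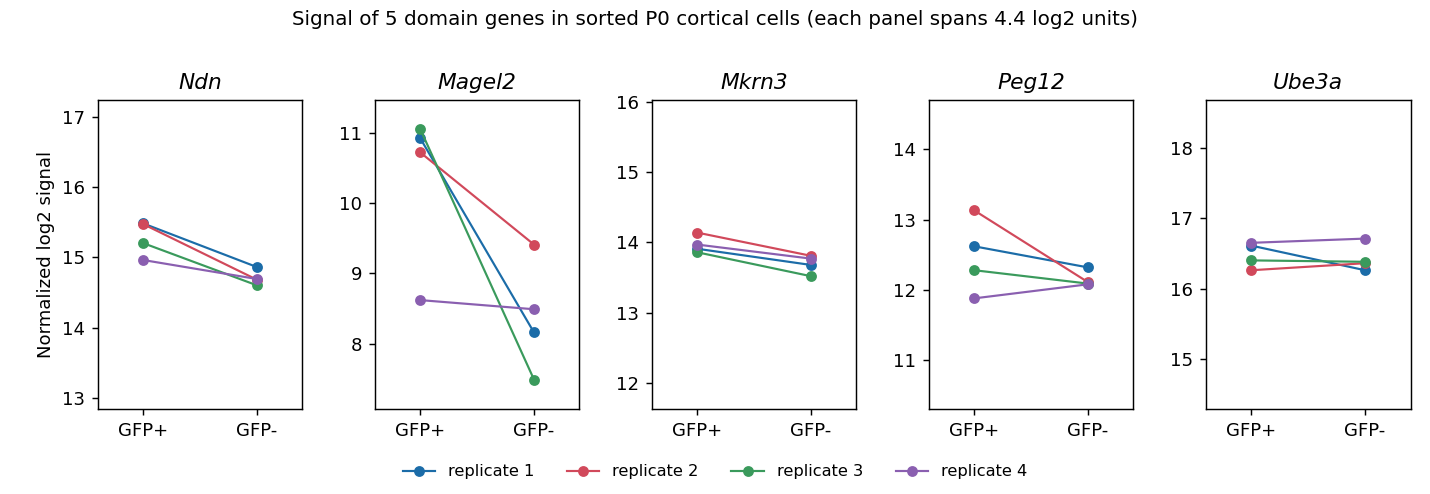
Normalized log2 signal (vertical axis) of Ndn, Magel2, Mkrn3, Peg12 and Ube3a on each array, with GFP+ at the left and GFP- at the right of each panel. Points are single arrays and lines join arrays of the same replicate number. All panels span the same number of log2 units but start at different levels, and levels of different genes cannot be compared because each comes from its own probe. The 4 GFP+ points lie above the 4 GFP- points for Ndn and Mkrn3, as for 9.23% of tested probes. Replicate 4 departs from the others for Magel2.

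Ndn encodes necdin, a protein of the MAGE family that is abundant in postmitotic neurons and promotes their differentiation and survival. The deposited Ndn signals (NM_010882.2) were 69844, 41281, 33448 and 26242 in GFP+ replicates 1 to 4, against 42249, 24426, 23057 and 22112 in GFP- replicates 1 to 4. The GFP+ array read higher than its GFP- partner in each pair, although the arrays were not yet on a common scale. After quantile normalization, which gives all arrays the same distribution of signals, the log2 signals were 15.48, 15.47, 15.20 and 14.96 in GFP+ cells, against 14.86, 14.68, 14.60 and 14.69 in GFP- cells. The lowest GFP+ value, in replicate 4, still lay above the highest GFP- value, in replicate 1, so the fractions did not overlap. Such complete separation toward higher GFP+ signal was seen for 9.23% of the 16875 probes tested across the array, those above background on at least 4 of 8 arrays. The differences within the pairs were 0.61, 0.79, 0.60 and 0.27 for replicates 1 to 4, with the smallest in replicate 4. The GFP+ array was the higher one in 4 of 4 pairs after median scaling, in the ratios that the authors deposited, and when arrays were scaled to the control spots of the reverse transcription kit (kit control scaling). The GFP- values were close together, with an SD of 0.11 that was undercut by 5.7% of tested probes, against an SD of 0.25 in GFP+ cells. Ndn was far above background everywhere, with signal-to-noise scores of 55.43 to 71.40 on the GFP+ arrays and 48.09 to 71.30 on the GFP- arrays.

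Magel2 encodes a second MAGE-family protein, which partners the ubiquitin ligase TRIM27 in endosomal protein recycling. Its probe was the only one of the 5 near background. The deposited Magel2 signals (NM_013779.1) were 2388, 1319, 1775 and 386.4 in GFP+ replicates 1 to 4, against 308.0, 644.6, 187.6 and 414.8 in GFP- replicates 1 to 4. The signal-to-noise scores were 15.83, 8.37, 17.09 and 0.89 in GFP+ cells, against -1.04, 3.85, -0.72 and 1.00 in GFP- cells. With a score of at least 3 taken as above background, Magel2 was detected on 3 of 4 GFP+ arrays and on 1 of 4 GFP- arrays. With a minimum of 5 it was detected on 3 of 4 GFP+ arrays and on 0 of 4 GFP- arrays. GFP+ replicate 4 was the exception among the GFP+ arrays, and GFP- replicate 2 the exception among the GFP- arrays. The probe entered the set of tested probes with exactly the 4 detected arrays that the filter required, 3 of them GFP+.

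The normalized Magel2 log2 signals were 10.92, 10.72, 11.05 and 8.62 in GFP+ cells, against 8.16, 9.41, 7.49 and 8.49 in GFP- cells. Within the pairs the GFP+ signal was 6.77-fold, 2.47-fold, 11.8-fold and 1.09-fold the GFP- signal for replicates 1 to 4. In pair 4 neither array was above background, so its value is a ratio of background readings. In pairs 1 and 3 the denominator is a background reading too. The direction in pair 4 turned with the scaling, with a log2 difference of 0.13 after quantile normalization, -0.13 after median scaling and in the deposited ratios, and 0.01 with kit control scaling. Without pair 4 the mean Magel2 difference was 2.56. Its SD over pairs exceeded that of 98.4% of tested probes, whereas its mean difference exceeded that of 98.5%.

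**Figure D2:**
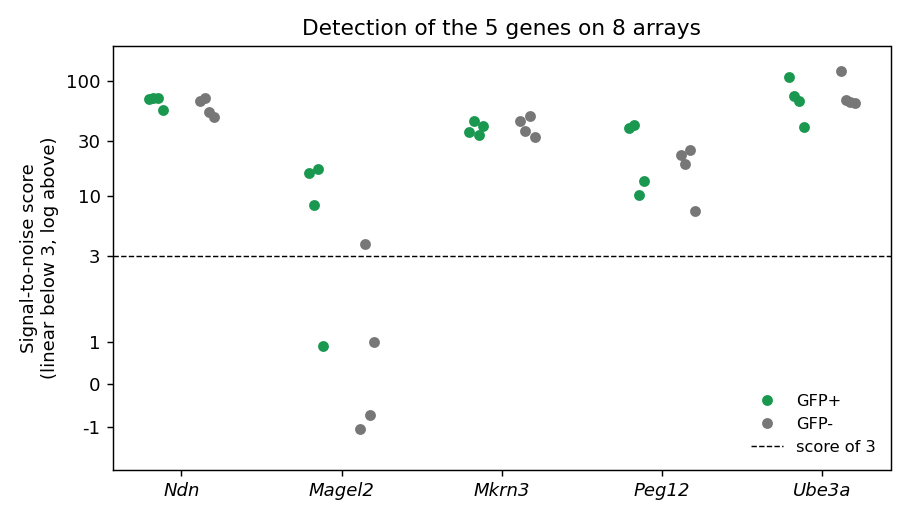
Signal-to-noise score (vertical axis, linear below 3 and logarithmic above) of each gene on the 4 GFP+ arrays (green, left) and the 4 GFP- arrays (grey, right), with points in the order of replicates 1 to 4. The dashed line marks the score of 3 used as the minimum for detection. Magel2 passes it on 3 of 4 GFP+ arrays and 1 of 4 GFP- arrays, and the other genes lie above it on all 8 arrays.

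Mkrn3 encodes a makorin, a RING-finger protein with ubiquitin ligase activity that in humans restrains the onset of puberty. The deposited Mkrn3 signals (NM_011746.1) were 21998, 15751, 13113 and 13528 in GFP+ replicates 1 to 4, against 17933, 13590, 11154 and 12237 in GFP- replicates 1 to 4. Normalized log2 signals were 13.91, 14.14, 13.86 and 13.97 in GFP+ cells, against 13.68, 13.81, 13.52 and 13.77 in GFP- cells. Each GFP+ array read above every GFP- array, as for 9.23% of tested probes, but the margin was narrow. The differences within pairs were 0.23, 0.33, 0.34 and 0.20, the most even of the 5 genes. Only 2.6% of tested probes had a smaller SD over pairs. Because this spread is small, the Mkrn3 difference moved by more than its SD with the scaling of the arrays, to 0.38 after median scaling and 0.19 with kit control spots. It stayed above 0 in all 4 pairs under each of these scalings, with 0.01 in pair 3 under the kit control scaling.

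Peg12, also known as Frat3, encodes a FRAT-family protein that binds the kinase GSK3. The deposited Peg12 signals (NM_013788.1) were 8476, 7603, 4279 and 3597 in GFP+ replicates 1 to 4, against 6852, 4281, 4202 and 4057 in GFP- replicates 1 to 4. Normalized log2 signals were 12.62, 13.13, 12.28 and 11.88 in GFP+ cells, against 12.32, 12.11, 12.09 and 12.08 in GFP- cells. The GFP+ arrays ranged widely, and replicate 4 read below all GFP- arrays, so the fractions overlapped. The differences within pairs were 0.31, 1.02, 0.19 and -0.20. Pair 2 carried most of the mean: without it the Peg12 difference was 0.10, and without GFP+ replicate 2 alone it was 0.11. Without pair 4 it was 0.52, and without GFP+ replicate 4 alone it was 0.54. Under the kit control scaling pair 3 turned as well (-0.20), which left 2 of 4 pairs higher.

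Ube3a encodes the ubiquitin ligase E6-AP, the founding member of the HECT family. The deposited Ube3a signals (NM_011668.1) were 157900, 73083, 77087 and 80374 in GFP+ replicates 1 to 4, against 115395, 79440, 76861 and 84950 in GFP- replicates 1 to 4. Normalized log2 signals were 16.61, 16.26, 16.40 and 16.65 in GFP+ cells, against 16.26, 16.36, 16.38 and 16.71 in GFP- cells. The ranges coincided, and the GFP+ array was the higher one in 2 of 4 pairs. The differences within pairs were 0.35, -0.10, 0.03 and -0.06, and the positive mean rested on pair 1. Without replicate pair 1 the Ube3a difference was -0.05. After median scaling 3 of 4 pairs were higher in GFP+ cells, with a mean difference of 0.22. Scores of 39.69 to 107.74 on the GFP+ arrays and 63.66 to 121.57 on the GFP- arrays placed the probe far above background in both fractions.

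**Figure D3:**
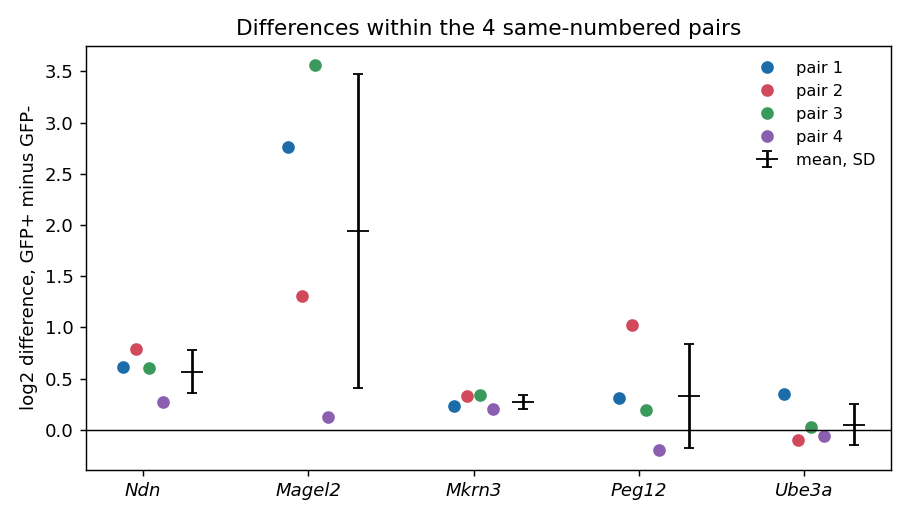
Difference in normalized log2 signal, GFP+ minus GFP- (vertical axis), of each gene within the 4 pairs of same-numbered arrays. Coloured points are pairs and the black mark with bars is their mean and SD (n = 4 pairs). Ndn and Mkrn3 lie above 0 in all pairs, Magel2 ranges from 0.13 to 3.56, and Ube3a lies on both sides of 0.

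The members were set against Ube3a within each pair, as a difference of differences. Ndn exceeded Ube3a by 0.27, 0.89, 0.58 and 0.33 in pairs 1 to 4, with a mean of 0.52 ± 0.28 on the log2 scale (SD, n = 4). For Magel2 the excess over Ube3a was 2.41, 1.41, 3.54 and 0.19, with a mean of 1.89 ± 1.43. For Ndn the excess was thus above 0 in all 4 pairs. The Magel2 excesses in pairs 1 and 3 have a GFP- reading that was not above background behind them, and that in pair 4 rests on such readings in both fractions, so pair 2 alone compares detected Magel2 signals. Computed from the unnormalized signals, where a single factor per array drops out, the Ndn excess was 0.27, 0.88, 0.53 and 0.33, while that of Magel2 in pair 4 turned to -0.02. Mkrn3 gave -0.12, 0.43, 0.31 and 0.26, with a mean of 0.22 ± 0.24, and Peg12 gave -0.04, 1.12, 0.16 and -0.14, with a mean of 0.28 ± 0.58. In pair 1, where Ube3a itself read higher in GFP+ cells, neither Mkrn3 nor Peg12 exceeded it. The mean of the 4 paternally expressed genes exceeded Ube3a by 0.63, 0.96, 1.15 and 0.16 in pairs 1 to 4, and by 0.73 ± 0.43 on average. Without Magel2, a choice made after its values were seen, the excess was 0.04, 0.81, 0.35 and 0.15 in pairs 1 to 4, with a mean of 0.34 ± 0.34. The 4 genes and Ube3a were read on the same arrays, so these values are not independent of each other.

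Set against all 16875 tested probes, the members lay in the upper part of the distribution except for Ube3a. The Magel2 difference exceeded that of 98.5% of tested probes, Ndn that of 85.5%, Peg12 that of 72.7%, Mkrn3 that of 68.0% and Ube3a that of 46.6%. Magel2 entered the tested set mainly through its GFP+ arrays, with detection on 3 of 4 GFP+ and 1 of 4 GFP- arrays. Its rank and its unadjusted p below are therefore set largely against background readings. The median difference was 0.45 for the 4 paternally expressed genes and 0.09 for all tested probes, of which 58.6% were higher in GFP+ cells. Of the 5 members, 0 passed an adjusted p of 0.05 in limma, a linear model fitted across all tested probes, while 14.5% of all tested probes did. At an unadjusted p under 0.05 there were 2 members, Ndn and Magel2, against 26.5% of tested probes. When the pairs were fitted as a block 1 member passed, Ndn, against 24.0% of tested probes. Ndn, Magel2 and Mkrn3 were higher in GFP+ cells in all 4 pairs after quantile normalization, as were 27.3% of tested probes. After median scaling and in the deposited ratios Magel2 was higher in 3 of 4 pairs, and its undetected pair 4 read -0.13. Since the genes were chosen with this contrast known, nothing is read from these counts.

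**Figure D4:**
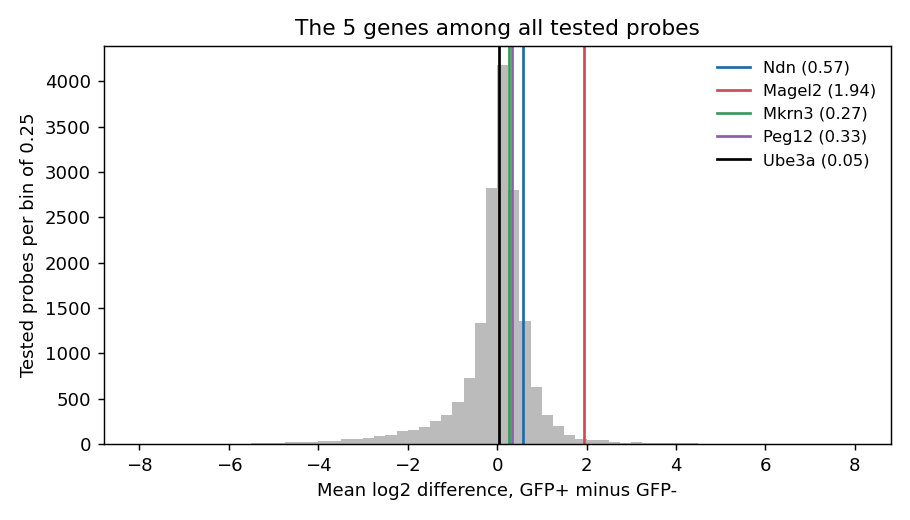
Histogram of the mean log2 difference, GFP+ minus GFP-, of the 16875 tested probes (horizontal axis; bars count probes per bin), with vertical lines at the 5 genes. Ube3a, Mkrn3, Peg12 and Ndn fall within the central peak and its shoulder, and Magel2 falls in the upper tail. The Magel2 line is set largely against background readings.

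The arrays of replicates 1 and 2 differed from those of replicates 3 and 4 in their hybridization control spots (mean log2 signal 15.95 to 16.27 against 17.13 to 17.35), and both sets hold both fractions. The Ndn difference was 0.72 within replicates 1 and 2 and 0.42 within replicates 3 and 4. The Peg12 difference was 0.69 within replicates 1 and 2 and -0.0015 within replicates 3 and 4. Within replicates 1 and 2 the differences of Magel2, Mkrn3 and Ube3a were 2.10, 0.29 and 0.12, and within replicates 3 and 4 they were 1.79, 0.26 and -0.02. The mean excess of the 4 paternally expressed genes over Ube3a was 0.83 within replicates 1 and 2 and 0.64 within replicates 3 and 4. Magel2, set largely against background, had the largest difference in both sets, so this mean does not show an excess shared by the 4 genes. No label names a batch, and whether this split of the arrays has a part in the Ndn and Peg12 values was not tested.

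Replicate 4 gave the smallest difference of the 4 pairs for Ndn, Magel2, Mkrn3 and Peg12 after quantile normalization, after median scaling and in the deposited ratios. With kit control scaling pair 3 was the smallest for Ndn (0.31), Mkrn3 (0.01) and Peg12 (-0.20), and pair 4 for Magel2. Over all tested probes the differences in pair 4 had an SD of 1.15, against 0.97, 0.98 and 1.13 in pairs 1 to 3. This SD holds array noise as well as the separation of the fractions, so it does not measure the separation alone. Lhx2, a homeodomain factor of pallial progenitors and excitatory neurons, read 12.66 in GFP+ replicate 4, against 10.36 to 11.10 on the other GFP+ arrays, and its difference in pair 4 was -3.53, against -5.02, -5.24 and -5.59 in pairs 1 to 3. The other excitatory factor Zbtb18 had nearly equal differences of -3.55, -3.84, -3.65 and -3.64 in pairs 1 to 4, and Pou3f3 had -1.83, -1.48, -1.16 and -1.86. The blood and microglial genes did not share an order of pairs. The erythrocyte gene Hba-a1 differed by -4.26, -4.41, -5.05 and -5.29 in pairs 1 to 4, the myeloid factor Cebpb by -1.86, -1.38, -3.46 and -3.46, and Bcl2a1b by -3.30, -2.47, -2.96 and -2.18. Lgals1, of the vascular or mesenchymal list, differed least in pair 4 (-1.5, against -2.88, -2.93 and -2.89), whereas Mfap4 of the same list had -2.47, -2.07, -2.35 and -2.46. The glial gene Mt3 had -3.46, -2.95, -3.90 and -3.66. Bcl2a1b and Lgals1 are set against GFP+ readings that were not above background. The cause of the small pair 4 differences of the paternally expressed genes was not tested.

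The markers of other cell types came from lists drawn up with earlier results of these arrays known, so their calls are no independent evidence. All 3 excitatory neuron genes, the 1 glial gene, both vascular or mesenchymal genes and all 3 blood or microglial genes that could be tested were lower in GFP+ cells in limma (adjusted p under 0.05). Of all 16875 tested probes, 1535 were lower by the same criterion. Without replicate pair 1 Pou3f3 did not pass (difference -1.48, limma adjusted p = 0.0546), and without pair 3 Cebpb did not (-2.23, limma adjusted p = 0.0934). These are few of the 21, 15, 16 and 20 genes of those lists. Their summed normalized signals were 76693 to 99670 in GFP+ cells and 901394 to 1184202 in GFP- cells for the excitatory neuron genes, and 19205 to 41596 in GFP+ cells and 554699 to 743318 in GFP- cells for the blood or microglial genes. These sums mainly follow the brightest probe of each list, Zbtb18 and Hba-a1. By gene, GFP- cells read 28.8-fold (Lhx2), 12.7-fold (Zbtb18) and 3.0-fold (Pou3f3) the GFP+ signal. The folds were 26.9 for Hba-a1, 6.63 for Bcl2a1b and 5.82 for Cebpb. Mt3, the glial gene, ranged from 3953 to 6670 in GFP+ cells and from 30642 to 97614 in GFP- cells. The vascular or mesenchymal genes summed to 2006 to 2482 in GFP+ cells and 9643 to 14695 in GFP- cells. Bcl2a1b and Lgals1 were not above background on any GFP+ array, and the other tested genes of these lists were on 4 of 4 GFP+ arrays. Of the 2 pan-neuronal genes, Scg2 was 2.99-fold higher in GFP+ cells (limma adjusted p = 0.00844, and 0.0617 without replicate pair 4), a fold set partly against background because it was detected on 4 of 4 GFP+ arrays and 2 of 4 GFP- arrays, and Snap25 was not above background on any array. None of the 16 listed genes of progenitors and dividing cells was matched to a probe. The part that the makeup of the fractions has in the differences of the imprinted genes was not tested.

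The rest of the domain and the pathways around it were covered thinly, because only 317 of the gene probes (0.96%) could be paired with a gene symbol. Of a list of 26 genes of the domain and its flanks, among them Snrpn, the 5 members were the ones with a named probe. No further gene was matched from the lists of other paternally expressed genes (31 genes, Ndn among them), MAGE genes and their partners (25, Ndn and Magel2 among them), binding partners of necdin (19) or ubiquitin ligases and E6-AP substrates (29). Of 38 maternally expressed genes outside the domain 1 was tested, Gnas, which encodes the stimulatory G protein alpha subunit. Gnas read 15.49, 15.47, 14.96 and 14.82 in GFP+ replicates 1 to 4, against 15.11, 15.10, 14.82 and 15.00 in GFP- replicates 1 to 4. Its difference of 0.18 ± 0.20 (SE) did not pass (limma adjusted p = 0.655), and it was higher in 3 of 4 pairs. Single arrays and pairs moved the Gnas difference between 0.07 (without GFP+ replicate 1) and 0.30 (without GFP+ replicate 4 or without pair 4), with 0.08 without GFP+ replicate 2 and 0.11 without pair 1, pair 2 or GFP- replicate 3. Gnas is imprinted in some tissues only and has several imprinted transcripts, which this probe may not separate.

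Of 15 retrotransposon-derived and TSPY-like genes, a set that holds several imprinted or X-linked genes, 3 were tested and 2 passed, both higher in GFP+ cells. Of all 16875 tested probes, 906 were higher by the same criterion. Tspyl2 was 1.75-fold higher (log2 signal 12.40 ± 0.27 in GFP+ cells and 11.59 ± 0.23 in GFP- cells, SD, n = 4 each; limma adjusted p = 0.0246), in 4 of 4 pairs. Rtl8c was 1.76-fold higher (13.44 ± 0.20 in GFP+ cells and 12.63 ± 0.30 in GFP- cells; limma adjusted p = 0.0236), also in 4 of 4 pairs. Both calls were fragile: the limma adjusted p was above 0.05 in 15 of 22 other fits for Tspyl2 (range 0.00736 to 0.162) and in 11 of 22 for Rtl8c (0.00568 to 0.211). The Tspyl2 call was lost without pair 1, 2 or 3, and the Rtl8c call without pair 1, 3 or 4. Among fits without 1 array, the Tspyl2 call was lost without GFP+ replicate 1, 2 or 3 or GFP- replicate 2, 3 or 4, and that of Rtl8c without GFP+ replicate 1, 3 or 4 or GFP- replicate 1. The third gene, Rtl6, had a difference of 0.34 ± 0.22 (SE, no block; limma adjusted p = 0.390) and was higher in 4 of 4 pairs. Its differences in pairs 1 to 4 were 0.36, 0.38, 0.38 and 0.25. With the pairs fitted as a block the limma adjusted p was 0.0565 for Rtl6, 0.0138 for Tspyl2 and 0.00721 for Rtl8c. The Rtl6 difference was 0.21 without GFP+ replicate 1 and 0.47 without GFP- replicate 1, the extremes without single pairs or arrays. Both called genes had been seen to pass in an earlier look at these arrays, and their lists are no independent evidence.

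Likeness to each member was measured as Pearson's r of normalized log2 signal over the 8 arrays, against 158 other tested genes with a symbol, as a description without a test, since the arrays come in pairs and share the split into fractions. The genes most like Ndn were Tspyl2 (r = 0.98), Unkl (0.91) and Sfrp4 (0.90). For Magel2 they were Nanos1 (0.87), Tspyl2 (0.87) and Dcaf12l1 (0.86). For Mkrn3 they were Nanos1 (0.94), Scg2 (0.87) and Gprasp1 (0.86), and for Peg12 Ddx28 (0.90), Gnas (0.88) and Nol12 (0.85). The genes most like Ube3a were different ones, Vmn1r236 (0.93), 2700081O15Rik (0.74) and Psme3 (0.66). After the mean of each fraction was subtracted, Nol12 (0.94), Gnas (0.94) and Tspyl2 (0.92) were the most like Ndn. By the same measure Dcaf12l1 (0.90), C130026I21Rik (0.81) and Nol12 (0.76) came first for Magel2, and Pou3f3 (0.96), Fxr2 (0.90) and Nanos1 (0.83) for Mkrn3. Otub1 (0.96), Ddx28 (0.93) and Nol12 (0.87) came first for Peg12, and Vmn1r236 (0.93), Gjd3 (0.91) and 2700081O15Rik (0.74) for Ube3a.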

How the data were processed

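Labelled RNA of 8 sorted samples was measured on 8 arrays, 1 per sample. The authors deposited a linear signal intensity and a signal-to-noise score for each probe, with a whole-number quality flag, per the file headers. The sources used here do not name the scanner, background step or array type. The value table that the authors deposited beside the arrays holds a ratio, equal to signal over 1 constant per array for 100% of probes (tolerance 1%). Its column medians were 0.973 to 0.992, and it served as an alternative.

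After a floor of 1, signals were log2-transformed and quantile normalized over the arrays. The 16875 probes whose score reached 3 on 4 or more of the 8 arrays were fitted with limma 3.58.1 in R 4.3.3 (lmFit, eBayes, no block; Benjamini-Hochberg over all tested probes, threshold 0.05). The procedure was tested on simulated data with independent arrays. That simulation held no pairing, so it does not show how the fit without a block acts on paired arrays. Median gene signals were 661.6 to 1052.4 on GFP+ and 839.6 to 1079.4 on GFP- arrays, with 16196 to 17050 and 16473 to 17749 probes above background. The number of arrays limits the precision. The limma p-values weigh each difference against the spread between these arrays. Without a block they treat the paired arrays as independent.

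Names came from the RefSeq table of GRCm38.p6 by transcript accession, symbol or synonym. Members and gene lists were chosen with earlier results of these data known. The naming rule took the members, listed genes with a probe and, for each member, the 3 most correlated genes. The replicate numbers were taken to pair the samples: within-group deviations of arrays with the same number had correlations of 0.517, 0.455, 0.347 and 0.441, against -0.389 to 0.162 for the 12 other combinations, and each array table holds 1 number. Alternatives covered scaling, filter, floor, pairing, batch and arrays left out.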

Additional observations from a re-analysis of the deposited data

Results flagged for a closer look

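In 18 sets of 4 arrays (5 members and 4 listed genes, each fraction), 2 values lay far from the rest of their set, and chance gives about 1 in 20 sets. Magel2 in GFP+ replicate 4 read a log2 signal of 8.62, against 10.72 to 11.05 on the other GFP+ arrays, a gap of 0.864 of the range of the set. This is the GFP+ array on which Magel2 was not above background. Peg12 in GFP- replicate 1 read 12.32, against 12.08 to 12.11 on the other GFP- arrays, a gap of 0.849 of a narrow range.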

How the results depend on the processing

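The Ndn and Magel2 differences moved by less than their SD over pairs in all 20 alternatives each, and stayed above 0. This count includes a raised floor and a quality flag filter, which could not move either gene. Their lowest signal, 187.6, lay above that floor, and none of their spots carried a high flag. For Magel2 the SD of 1.53 rests partly on background readings, so staying within it says little about stability. Over the fits that left out a pair or an array the differences ranged from 0.49 to 0.68 for Ndn, 1.42 to 2.56 for Magel2, 0.22 to 0.31 for Mkrn3, 0.10 to 0.54 for Peg12 and -0.05 to 0.15 for Ube3a. The Mkrn3 difference was 0.38 with median scaling, 0.37 from the deposited ratio and 0.19 with kit control scaling. These scalings moved the median of all tested probes (0.181, 0.178 and -0.006, against 0.088 after quantile normalization). Relative to that median the differences under quantile, median and kit control scaling were 0.48, 0.54 and 0.54 for Ndn, 1.85, 1.76 and 1.76 for Magel2, 0.19, 0.20 and 0.20 for Mkrn3, 0.24, 0.22 and 0.22 for Peg12, and -0.04, 0.04 and 0.04 for Ube3a, whose side of the median thus turned. Within replicates 3 and 4 Peg12 was -0.0015, Ube3a -0.02 and Gnas -0.02 (adjusted p = 0.974), and Ube3a was -0.0043 without GFP+ replicate 4 and -0.0039 without GFP- replicate 1. The cause was not tested. The excess of the paternally expressed genes over Ube3a ranged from 0.59 to 0.93 without single pairs and was 0.34 without Magel2.

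Over all probes 2441 were called (906 higher, 1535 lower in GFP+ cells). With the replicate block 4043 were called, 1081 within replicates 1 and 2, 1191 within replicates 3 and 4 (fewer arrays), and 1529 to 2416 without single pairs or arrays, lowest without pair 3. The share higher was 37.1%, against 23.6% with kit control scaling (439 higher, 1424 lower). Of 14 tested listed genes 12 were called (7 within replicates 1 and 2, 7 within replicates 3 and 4, 9 to 11 without single pairs or arrays), and the pairing as a block left 12. Of all tested probes 14.5% were called, and the lists were drawn up with earlier results of these arrays known. Among the members the block changed the call of Ndn only. Raising the floor to 32 and leaving out spots with high quality flags could change no value of a member, because neither step reached a member's spot. Dim probes limit Magel2, which was above background on 4 of 8 arrays.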
